A study of Arabidopsis thaliana with 36 samples.

Results

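Plant cells hold 3 genomes, and the chloroplast and the mitochondrion each keep and transcribe a small genome of their own. The genes described here are those encoded in the chloroplast (plastid) and mitochondrial genomes of Arabidopsis, chosen by gene identifier, with ATCG for the plastid and ATMG for the mitochondrion. Of the 20926 genes in the deposited normalized table, 75 were plastid genes and 20 were mitochondrial genes. The table of raw counts, with 33602 genes, listed 133 plastid and 146 mitochondrial rows, so 58 plastid and 126 mitochondrial rows had been filtered out for low counts before deposit. Of those, 25 and 78 had no count in any library, and the other 33 and 48 held 0.197% of the plastid and 0.336% of the mitochondrial counts. The lowest members kept had a mean of 4.92 (plastid) and 4.36 (mitochondrial) counts per library, and the highest rows left out, ATCG01070 and ATMG01130, had 5.03 and 5.22.

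RNA-Seq had been performed on whole seedlings of Arabidopsis ecotype Col-0, 7 days old and grown under constant white light, as wild type (Col), as the *uvr8-6* mutant of the UV-B photoreceptor UVR8, or as the *hfr1-101* mutant of HFR1, a negative regulator of shade responses. Seedlings stayed under white light with a red:far-red ratio (R:FR) of 4.7 (WL), or received for 3 h supplementary far-red light that lowered the R:FR (+FR), supplementary narrowband UV-B (+UVB), or both (+FR+UVB). The labels give the low R:FR as 0.05 in one place and 0.08 in another. Each of the 12 combinations had 3 libraries, each from 30 seedlings, and nothing in the labels says whether the 3 came from separately grown plants, so p-values measure the spread between these samples, which may be technical. Each mutant is represented by a single allele.

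Plastid genomes encode core subunits of the photosystems, of the plastid ATP synthase and of the plastid ribosome, together with rRNAs, tRNAs and the core of a bacterial-type RNA polymerase. Mitochondrial genomes encode, among other products, subunits of the respiratory chain. Most proteins of both organelles are encoded in the nucleus. Among them are the sigma factors that direct the plastid polymerase to its promoters. Phage-type polymerases, which serve the mitochondrion and also the plastid, are nuclear-encoded too. The libraries were made by selection for poly(A) tails. Nuclear mRNAs carry such tails, whereas organelle transcripts and ribosomal RNAs for the most part do not, and in organelles a short tail marks an RNA for decay. The organelle counts below are therefore counts in a poly(A)-selected library and not a measure of all organelle RNA. In whole seedlings, fewer cells of a type and less RNA per cell cannot be told apart.

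The identifiers ATCG and ATMG were not paired with gene names in the tables used here, except for a few members named in the annotation notes of related nuclear genes. Among these are ATCG00430 (photosystem II reaction center protein G), ATCG00530 (a CemA-like proton extrusion protein), ATCG00660 (ribosomal protein L20), ATCG00670 (plastid-encoded CLP P, a protease subunit), ATMG00410 (ATPase subunit 6-1), ATMG00730 (cytochrome c oxidase subunit 3), ATMG01080 (mitochondrial F0-ATPase subunit 9) and ATMG01320 (NADH dehydrogenase 2B). In the RefSeq annotation of TAIR10, *cemA* lies at 60741 to 61430 of the plastid genome, *rpl20* at 68512 to 68865 and *clpP* at 69910 to 71882. The names are those of the notes on nuclear genes, and no member identifier could be matched to the RefSeq genes to check them. The other members are given by identifier alone.

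Not every organelle gene could be counted equally well. Of all stretches of 100 bases, the read length, 65.8% of the plastid genome and 31.8% of the mitochondrial genome occur at a single place in the RefSeq sequence of TAIR10. Of the RefSeq protein-coding genes, 10 plastid and 13 mitochondrial genes have no such stretch, the latter including *atp6*, *atp9* and *cox3*, the subunits for which ATMG00410, ATMG01080 and ATMG00730 are named. Whether the authors aligned to the same mitochondrial sequence was not checked. Part of the mitochondrial genome has a nuclear copy on chromosome 2, so mitochondrial reads and reads from that copy cannot be told apart where the sequence is the same. How reads that map to several places were counted is not given in the sources used here, and neither is the strand setting, so members that overlap on opposite strands are uncertain too.

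Depth ranged from 9746532 to 21169969 counts on the genes tested. The shallowest library was *hfr1-101* WL replicate 1, and the next had 13472527 counts. That library stood apart in organelle counts as well, so values are also given without it where it moved them. The nuclear 18S ribosomal RNA row AT3G41768, which has no poly(A) tail, took 3.06% of its counts, against 0.0235% to 0.634% in the other 35 libraries. Rows of the nuclear copy of the mitochondrial genome held 660 to 1274 counts over the 36 libraries, with 1205 in *hfr1-101* WL replicate 1. As a share of all counts this was 0.0124% in that shallow library, against 0.00325% to 0.00623% in the other 35 libraries. All libraries expressed the leaf genes *RBCS1A*, *RCA* and *CAB1*, whose summed level ran from 30645 to 53712 CPM (counts scaled to library size by the TMM method), and the 4 root markers *EIR1*, *SHV2*, *EXPA7* and *MYB66* summed to 23.4 to 57.3 CPM.

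Plastid genes took a small and very variable share of each library. The share ran from 0.0137% in *uvr8-6* WL replicate 3 to 1.51% in *hfr1-101* WL replicate 1, a 110.2-fold range with a median of 0.0637%. Without *hfr1-101* WL replicate 1 the highest share was 0.217%, in Col WL replicate 1, and the range was 15.8-fold. The 95% Wilson interval, which covers counting error only, was 0.0132% to 0.0143% for the lowest library and 1.51% to 1.52% for the highest.

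In Col WL the plastid share was 0.217%, 0.151% and 0.205% in replicates 1 to 3, and in Col +FR it was 0.0156%, 0.0287% and 0.0844%. All 3 WL libraries lay above all 3 +FR libraries, but the +FR libraries themselves differed several-fold. Col +UVB had 0.0919% ± 0.0337 (SD, n = 3) and Col +FR+UVB had 0.0621% ± 0.0594 (SD, n = 3). In *uvr8-6*, WL was the lowest light condition, with 0.0273%, 0.0600% and 0.0137%. The other conditions of *uvr8-6* had 0.0844% ± 0.0508 (+FR), 0.108% ± 0.0591 (+UVB) and 0.0632% ± 0.0154 (+FR+UVB), each with n = 3. In *hfr1-101*, WL had 1.51%, 0.0545% and 0.209%, so that the mean of 0.593% ± 0.802 (SD, n = 3) fell to 0.132% ± 0.109 (SD, n = 2) without replicate 1. The lowest and tightest *hfr1-101* group was +UVB, with 0.0403% ± 0.00846 (SD, n = 3).

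The mitochondrial share followed the plastid share from library to library. It ran from 0.0157% in *uvr8-6* WL replicate 3 to 0.768% in *hfr1-101* WL replicate 1, a 48.9-fold range, and without that library to 0.167% in Col WL replicate 3, a 10.6-fold range. Col WL had 0.148%, 0.111% and 0.167% in replicates 1 to 3, and Col +FR had 0.0180%, 0.0312% and 0.0737%. Here too the WL and +FR libraries of wild type did not overlap. The share was 0.0311% ± 0.0155 (SD, n = 3) in *uvr8-6* WL, and in *hfr1-101* WL it was 0.768%, 0.0404% and 0.144%. The ratio of plastid to mitochondrial counts stayed within 0.867 to 1.97 over all 36 libraries, and within 0.867 to 1.74 without *hfr1-101* WL replicate 1, a narrower range than that of either share.

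The 18S rRNA moved with both. Across the 36 libraries its share had a 130.3-fold range, yet plastid counts per 18S count ran from 0.275 to 0.666 and mitochondrial counts per 18S count from 0.207 to 0.768. In wild type the 18S share was 0.345% to 0.516% under WL and 0.0235% to 0.215% under +FR, which is the same order as the organelle shares. The leaf markers summed to 43793 to 48874 CPM in Col WL and 35982 to 42376 CPM in Col +FR, and the root markers to 32.7 to 39.0 and 28.1 to 57.3 CPM. The part of the 18S level and of the marker levels in the organelle results was not tested.

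**Figure D1:**
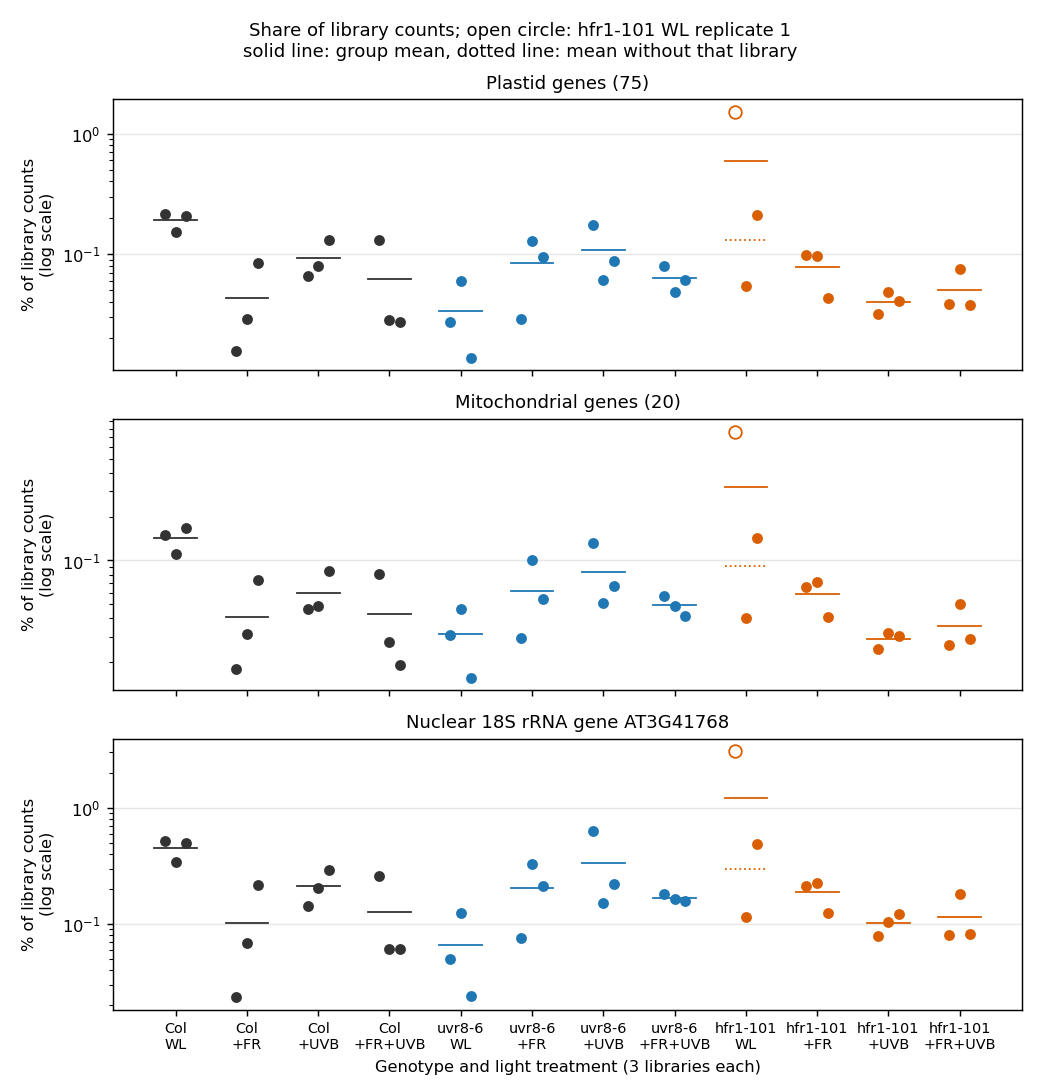
Share of each library's counts, in percent on a log axis, on plastid genes, mitochondrial genes and the nuclear 18S rRNA row, by genotype and light condition, with each point a library. The points of all 3 quantities rise and fall together, and *hfr1-101* WL replicate 1 lies above all others, at 1.51%, 0.768% and 3.06%.

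Counts were concentrated on few rows. ATCG00020 held 40.7% of all plastid counts, from 18.3% in *uvr8-6* WL replicate 3 to 47.1% in *hfr1-101* WL replicate 1, and with ATCG00490 it made up 61.8%. The 10 largest plastid members held 86.1%. These values were 38.8%, 60.2% and 85.3% without *hfr1-101* WL replicate 1. In the mitochondrion the concentration was higher, since ATMG00020 and ATMG01390 together held 97.9% of the counts and between 96.8% and 98.2% in every library. These are shares of counts and not levels per length, as gene lengths were not used. At the other end, 37 plastid and 11 mitochondrial members had at most 3 counts in at least 1 library.

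All 75 plastid and all 20 mitochondrial members were highest in *hfr1-101* WL replicate 1. How closely a member followed its genome was described by the slope of its log2 CPM on the log2 total of the other members of that genome, over the 35 libraries without that library, for the 38 plastid and 9 mitochondrial members with more than 3 counts in each library. These libraries share depth and composition, so slopes are descriptions only. A slope of 1 means that the member kept its share of the genome, and a slope near 0 that its CPM stayed level while the genome as a whole rose and fell. The median was 0.80 in the plastid, with 6 members over 1, 23 between 0.5 and 1, and 9 below 0.5. In the mitochondrion the median was 0.75, with 2 members over 1, 6 between 0.5 and 1, and 1 below 0.5.

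ATCG00020 had the steepest plastid slope, 1.33, and ran from 24.0 to 925 CPM, a 38.6-fold range, with 7342 CPM in *hfr1-101* WL replicate 1. ATCG00490 had a slope of 1.14 and a 19.3-fold range. The members at the other end were singled out after their values were seen. ATCG00190 had the flattest slope, 0.12, and stayed between 5.50 and 14.0 CPM in 35 libraries, a 2.55-fold range, with 24.0 CPM in *hfr1-101* WL replicate 1. ATCG01020 (slope 0.22) varied 3.44-fold, ATCG00790 (0.25) 3.04-fold and ATCG00480 (0.47) 3.76-fold, against a median of 10.4-fold over the 38 members. The other 5 members below 0.5 were ATCG00180, ATCG00780, ATCG00630, ATCG00170 and ATCG00470. Several of the 9 have neighbouring numbers, namely ATCG00170 to ATCG00190, ATCG00470 and ATCG00480, and ATCG00780 and ATCG00790, and such identifiers are numbered along the genome. *hfr1-101* WL replicate 1 lay 33.4-fold above the median library for ATCG00020, but 2.89-fold for ATCG00190 and 2.63-fold for ATCG01020.

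Members named by a protein fell between these ends. ATCG00430, which a note names as photosystem II protein G, had a slope of 0.81. The CemA-like row ATCG00530 had 0.59 and the CLP P row ATCG00670 had 0.55. Among mitochondrial members, ATMG00690 was the flattest (0.47) and ATMG01360 the steepest (1.04), while the abundant ATMG00020 and ATMG01390 had 1.00 and 1.01. ATMG01080, the F0-ATPase subunit 9 row, had 0.72 and ran from 0.384 to 3.44 CPM.

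For a few rows, the most similar rows were looked up within the same genome only, by Pearson's r of log2 CPM over the 36 libraries. The row most like ATCG00020 was ATCG00490 (r = 0.99), the row most like ATMG00020 was ATMG01390 (r = 1.00), and the rows most like ATCG00190 were ATCG00180 (r = 0.88), ATCG00170 (r = 0.84) and ATCG00790 (r = 0.83). The same rows ranked the same without *hfr1-101* WL replicate 1, with r of 0.99, 0.99, 0.81, 0.75 and 0.74 in that order. The libraries share their depth and composition, so these values are descriptions.

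**Figure D2:**
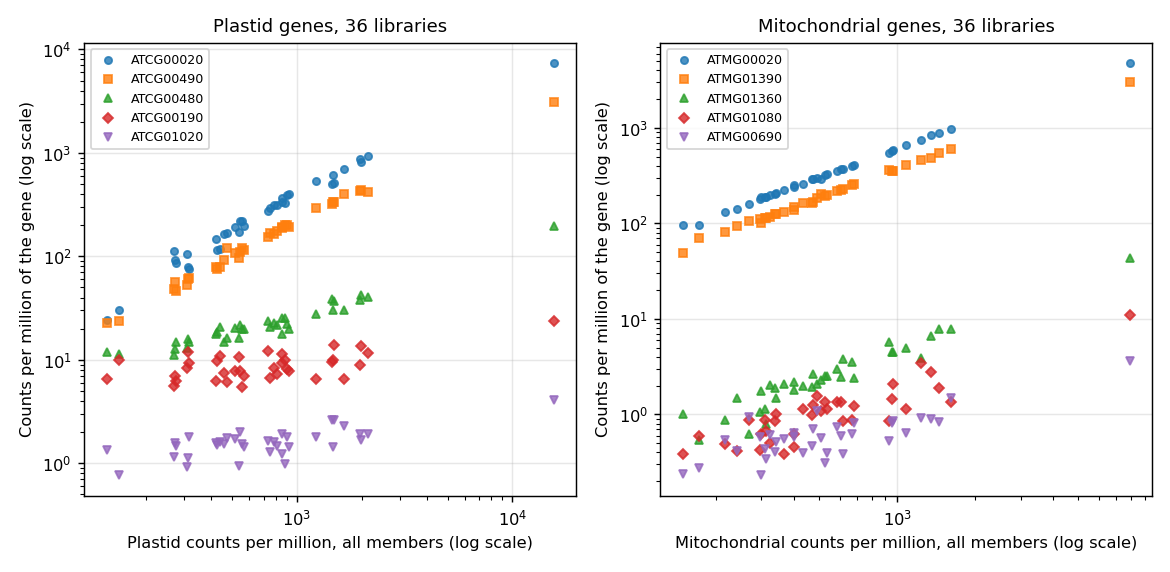
Level of 5 plastid and 5 mitochondrial members (CPM, log axis) against the total CPM of their genome (log axis), with each point a library. ATCG00020 climbs from 24.0 to 7342 CPM along the plastid total, whereas ATCG00190 stays between 5.50 and 24.0 CPM.

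The comparison of +FR with WL asks how a shade signal changes transcripts. In wild type all 75 plastid and all 20 mitochondrial members were lower under +FR, by a median of -1.99 and -1.67 on the log2 scale, while the median over all 20926 genes was 0.01. Groups did not overlap for 71 plastid and 16 mitochondrial members, against 15.7% of all genes that were lower without overlap. ATCG00020 measured 925, 606 and 820.4 CPM under WL and 30.1, 92.9 and 316 CPM under +FR. ATMG00020 measured 881, 658 and 980.1 CPM under WL and 97.4, 181 and 412 CPM under +FR. In both rows each WL library exceeded each +FR library, and the +FR libraries spanned a wider range than the WL libraries.

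The test across all genes passed few of these. A gene counted as called when it changed more than 2-fold with an adjusted p below 0.05 in edgeR's quasi-likelihood test. By this rule 0 of 75 plastid members and 1 of 20 mitochondrial members, ATMG00510, were called, against 0.516% of all genes called lower. ATMG00510 fell by 3.07 (log2, SE 0.88, adjusted p = 0.0219), from 18, 12 and 27 counts under WL to 2, 1 and 4 under +FR. ATCG00020, at -2.42 (SE 0.96, adjusted p = 0.114), missed the threshold, and so did ATMG00020 at -1.87 (SE 0.69, adjusted p = 0.0883). At an unadjusted p under 0.05 there were 55 plastid and 10 mitochondrial members, against 22.8% of all genes.

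The count depended on a library outside the comparison. The spread of each gene is estimated over all groups, and without *hfr1-101* WL replicate 1 the same wild-type fold changes gave 46 plastid and 8 mitochondrial calls, all lower, against 0.765% of all genes. Leaving out +FR replicate 3 of wild type instead gave 7 plastid calls, with the share of all genes in that setting not given here. Among the 46 were ATCG00340 (log2 fold change -2.27, adjusted p = 0.0149), ATCG00350 (-2.45, adjusted p = 0.0206), ATCG00680 (-2.13, adjusted p = 0.0154) and the CLP P row ATCG00670 (-1.47, adjusted p = 0.0268). The 8 mitochondrial calls included ATMG00020 (-1.87, adjusted p = 0.0304), ATMG01390 (-1.83, adjusted p = 0.0368) and the cytochrome c oxidase subunit 3 row ATMG00730 (-1.69, adjusted p = 0.0450). ATCG00020 and ATCG00490 were not among the calls (adjusted p = 0.0609 and 0.0532), and neither was the flat row ATCG00190, with -0.49 (adjusted p = 0.107).

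These fold changes are relative to the scaling, which shifts all members of a library alike, so that counts of positive members under different scalings describe a common shift and not separate genes. Scaled within its own genome, the median plastid log2 fold change was -0.07 and the mitochondrial -0.08, with 37 of 75 and 9 of 20 members positive. Scaled by the 18S rRNA count, which was tried after the data were seen, the medians were 0.37 and 0.65, with 54 of 75 and 18 of 20 positive. On that scale ATCG00020 had -0.29 (adjusted p = 0.430) and ATMG00020 had 0.67 (adjusted p = 0.0573). Scaling within a genome centres its members near 0 by construction, so those medians cannot show whether the genome as a whole changed. The lower levels in wild type under +FR hold for TMM scaling on all genes, which is relative to nuclear mRNA.

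Under +UVB compared with WL, 72 of 75 plastid and 19 of 20 mitochondrial members had a lower CPM, by a median of -0.68 and -0.88 (log2), against -0.05 over all genes. Groups did not overlap for 17 plastid and 6 mitochondrial members, against 30.2% of all genes that were lower without overlap. edgeR's test called 0 members, while 6.79% of all genes were called lower and 6.68% higher, and at an unadjusted p under 0.05 there were also 0, against 54.8% of all genes. Without *hfr1-101* WL replicate 1 it called ATCG01040 (-1.68, adjusted p = 0.0451) and ATMG00730 (-1.33, adjusted p = 0.0417), against 6.76% of all genes called lower.

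When UV-B was added to low R:FR, 70 of 75 plastid and 14 of 20 mitochondrial members of wild type were higher, by a median of 0.75 and 0.35, against -0.04 over all genes. None was called, against 8.27% of all genes called higher, and 2 plastid members had an unadjusted p under 0.05, against 59.1% of all genes. Without *hfr1-101* WL replicate 1 there were 3 plastid calls, against 8.28% of all genes, ATCG00290 (2.12, adjusted p = 0.0142), ATCG00330 (1.55, adjusted p = 0.0168) and ATCG00340 (1.42, adjusted p = 0.0459). ATCG00290 held between 1 and 37 counts in these 6 libraries.

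In *uvr8-6* under +UVB compared with WL, all 75 plastid and all 20 mitochondrial members had a positive fold change and none passed the test. The medians were 1.48 and 1.25, against -0.01 over all genes. ATCG00020 measured 86.5, 219.6 and 24.0 CPM under WL and 693, 198 and 312 CPM under +UVB, so the groups overlapped. ATMG00020 measured 189, 262 and 95.9 CPM under WL and 754, 293 and 372 CPM under +UVB, with no overlap. Over all members, 40 plastid and 14 mitochondrial members were higher without overlap, against 8.36% of all genes. Of all genes 0.722% were called higher, and at an unadjusted p under 0.05 there were 12 plastid and 3 mitochondrial members, against 17.2% of all genes. Without *hfr1-101* WL replicate 1 there were 3 calls, against 0.731% of all genes, ATCG01130 (2.75, adjusted p = 0.0345), ATCG00800 (1.63, adjusted p = 0.0474) and ATMG01200 (2.47, adjusted p = 0.0462). ATMG01200 had 3 libraries over 0.5 CPM, namely *hfr1-101* WL replicate 1 and Col WL replicates 2 and 3, and 2 without the first. The exact rule of the authors' filter is not known, so ATMG01200 may be in the table only through libraries in which it is high.

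Under +FR, 74 of 75 plastid and all 20 mitochondrial members of *uvr8-6* were higher than under WL, by a median of 0.96 and 0.91, and 0 were called, against 1.49% of all genes called higher. At an unadjusted p under 0.05 there were 0 plastid and 2 mitochondrial members, against 20.1% of all genes, and without *hfr1-101* WL replicate 1 ATMG00690 was called (1.42, adjusted p = 0.0275), against 1.48% of all genes. When UV-B was added to low R:FR, the medians were -0.09 and -0.21, with 0 calls, against 0.616% of all genes called higher and 0.239% lower, and 0 members at an unadjusted p under 0.05, against 15.3% of all genes. Scaled within each genome, the median plastid log2 fold change under +UVB was 0.04 and under +FR -0.04, both near 0 by construction. Scaled by 18S rRNA the median was -0.67 under both. The 18S share of *uvr8-6* was 0.0241% to 0.125% under WL and 0.152% to 0.634% under +UVB.

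The largest counts of called members came from *hfr1-101*, and most of them rested on WL replicate 1. Under +FR compared with WL 71 of 75 plastid and 15 of 20 mitochondrial members were called lower, against 1.14% of all genes, with median log2 fold changes of -2.83 and -2.42. Groups did not overlap, however, for only 7 plastid members and 1 mitochondrial member, against 15.2% of all genes. ATCG00020 measured 7342, 219 and 880.5 CPM under WL and 404, 391 and 149 CPM under +FR, so WL replicate 2 lay among the +FR libraries. Without WL replicate 1 the calls were 0 and 0, the medians -0.63 and -0.71, and 0.545% of all genes were called lower. Leaving out +FR replicate 3 instead gave 25 plastid calls, with the share of all genes in that setting not given here.

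Under +UVB compared with WL 73 plastid and 19 mitochondrial members of *hfr1-101* were called lower, against 6.83% of all genes, with medians of -3.35 and -2.69. ATCG00020 fell by 4.19 (SE 1.03, adjusted p = 0.00134) and ATMG00020 by 3.4 (SE 0.74, adjusted p = 0.000363). Without WL replicate 1 the medians were -1.22 and -1.07, and 5 plastid and 4 mitochondrial members were called, against 6.06% of all genes. For ATCG00020 the WL libraries had 7342, 219 and 880.5 CPM and the +UVB libraries 106, 192 and 164 CPM, which did not overlap, and the same held for 24 plastid and 10 mitochondrial members, against 27.5% of all genes.

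The members still called without WL replicate 1 were ATCG00700 (-3.04), ATCG00950 (-2.65), ATCG00210 (-2.29), ATCG00510 (-2.27), ATCG00630 (-1.32), ATMG00510 (-2.23), ATMG01170 (-1.70), ATMG00020 (-1.55) and ATMG01390 (-1.48), with adjusted p from 0.00299 to 0.0496. ATCG00950 measured 35.6, 1.31 and 5.68 CPM under WL and 0.256, 0.508 and 0.904 CPM under +UVB, and was called whichever library of the comparison was left out. When UV-B was added to low R:FR, 0 members of *hfr1-101* were called, against 6.61% of all genes called higher and 6.66% lower, with 0 at an unadjusted p under 0.05, against 55.1% of all genes, and medians of -0.09 and -0.27.

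**Figure D3:**
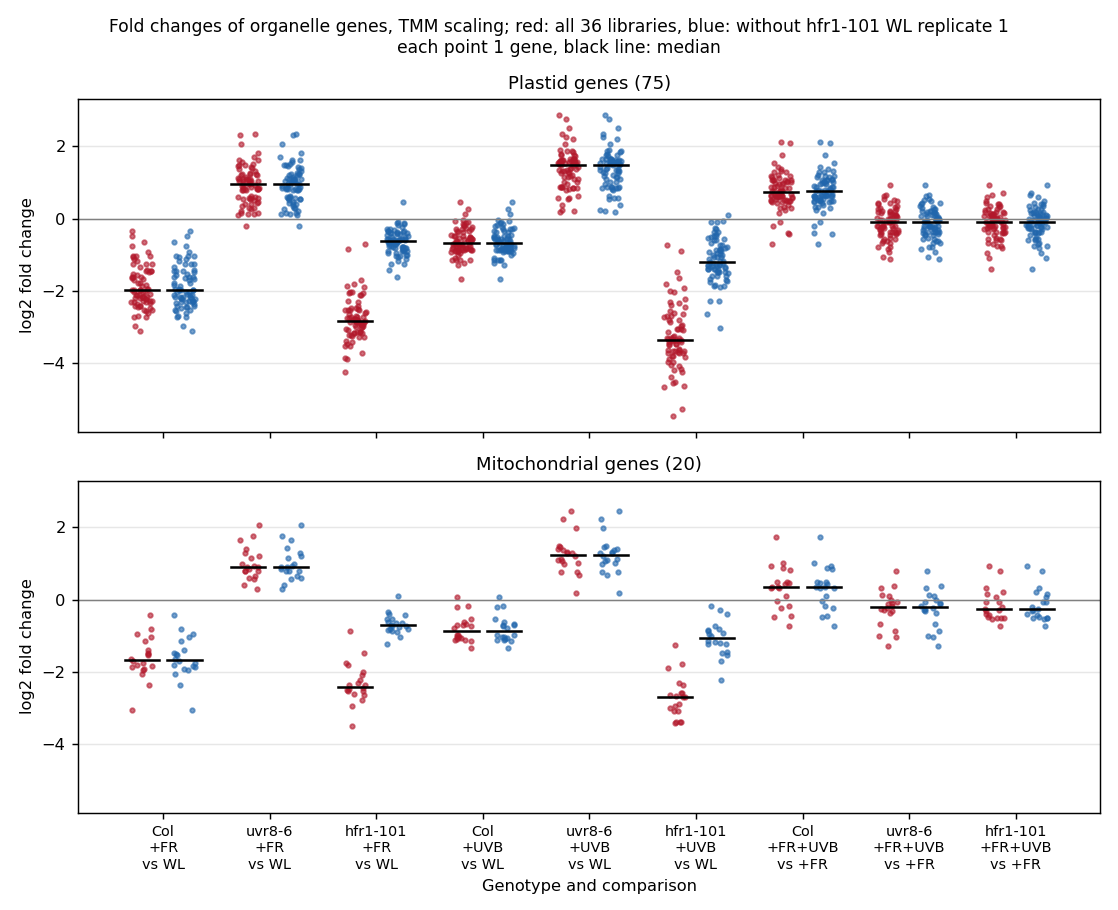
Log2 fold change of each of the 75 plastid and 20 mitochondrial members in the 9 light effects, with and without *hfr1-101* WL replicate 1, with each point a member. In wild type under +FR the points lie below 0 in both settings, with a plastid median of -1.99, while in *hfr1-101* under +FR the median moves from -2.83 to -0.63.

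**Figure D4:**
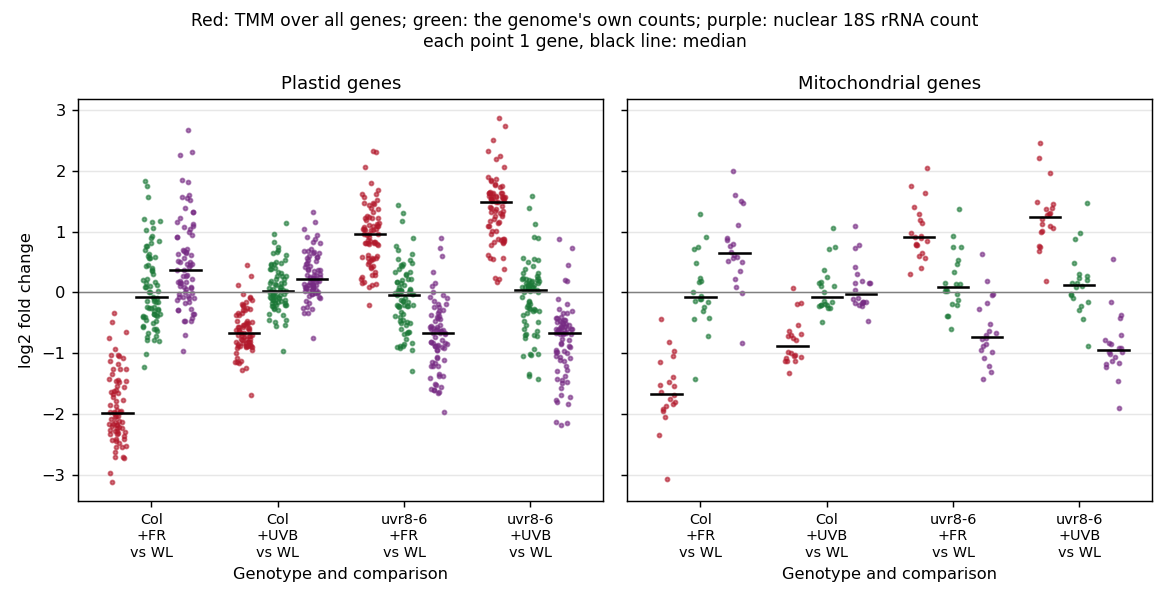
Log2 fold change of each member for +FR and +UVB in wild type and *uvr8-6* under TMM scaling on all genes, scaling within each genome and scaling by 18S rRNA, with each point a member. The plastid median in wild type under +FR moves from -1.99 to -0.07 and 0.37, and in *uvr8-6* under +UVB from 1.48 to 0.04 and -0.67. Scaling within a genome centres its members near 0 by construction.

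Scaling each genome by its own counts divides out the swing that its members share alike. A member with a slope far from 1 can still move with the genome's total on this scale, or against it. Levels on this scale are counts per 1000 scaled counts, where a library's scaled counts are the genome's total times a TMM factor computed within that genome. They are therefore not plain shares of the genome and need not sum to 1000. Calls are at an adjusted p under 0.05 by edgeR's quasi-likelihood test without a fold minimum, and each was also fitted with the plain total of the genome in place of the scaled one, an alternative added after the data were seen. In wild type, ATCG00190 measured 6.87, 7.79 and 7.38 per 1000 scaled plastid counts under WL and 48.0, 22.8 and 11.4 under +FR (log2 fold change 1.83, SE 0.58, adjusted p = 0.0424). ATCG00790 measured 2.302, 2.73 and 2.70 under WL and 14.2, 6.23 and 4.20 under +FR (1.57, SE 0.44, adjusted p = 0.0183). The +FR library with the highest level of both rows was replicate 1, the library with the fewest plastid counts of the 6. ATCG00350 was lower, from 64.1, 50.5 and 50.4 to 27.4, 34.4 and 44.8 (-0.60, SE 0.19, adjusted p = 0.0369). These 3 of the 75 were the members called, with 0 mitochondrial, against 6.03% of all genes higher and 4.22% lower. Leaving out libraries in turn, of 7 settings the call was kept in 2 for ATCG00190, 5 for ATCG00790 and 3 for ATCG00350. With the plain total ATCG00190 (2.32, adjusted p = 0.0318) and ATCG00790 (2.02, adjusted p = 0.0175) passed and ATCG00350 (-0.26, adjusted p = 0.377) did not. The total plastid share moved with these rows, and its part in them was not tested.

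Under +UVB in wild type ATCG00160 was higher (0.96, kept in 3 of 7) and ATCG00350 lower (-0.45, kept in 4 of 7), against 24.6% of all genes in each direction. With the plain total the first passed (adjusted p = 0.0353) and the second did not (adjusted p = 0.120). The addition of UV-B to low R:FR in wild type gave 4 calls. ATCG00340 measured 42.7, 46.9 and 53.4 per 1000 scaled plastid counts under +FR and 84.0, 78.0 and 66.8 under +FR+UVB (log2 fold change 0.67, SE 0.15, adjusted p = 0.000439). ATCG00330 measured 14.8, 11.4 and 9.73 under +FR and 19.2, 18.4 and 20.1 under +FR+UVB (0.72, SE 0.21, adjusted p = 0.00452). ATCG00120 measured 19.0, 15.9 and 16.7 under +FR and 21.3, 20.7 and 22.7 under +FR+UVB (0.33, SE 0.10, adjusted p = 0.00492). On this scale every +FR+UVB library exceeded every +FR library in all 3 rows. As plain percent of plastid counts the groups stayed apart for ATCG00340, at 4.98% to 5.92% under +FR and 7.54% to 9.24% under +FR+UVB, but overlapped for ATCG00330 (0.908% to 2.05% and 1.72% to 2.42%) and ATCG00120 (1.56% to 2.63% and 1.91% to 2.73%). With the plain total ATCG00340 (0.63, adjusted p = 0.00532) and ATCG00330 (0.67, adjusted p = 0.0390) passed and ATCG00120 (0.29, adjusted p = 0.141) did not. ATCG00340 and ATCG00120 were called in 7 of 7 settings that leave out a library and ATCG00330 in 6 of 7. The last call, ATCG00290 (1.31, adjusted p = 0.0123), was kept in 4 of 7 and passed with the plain total (adjusted p = 0.0145). These 4 of 75 calls stand against 26.9% of all genes called higher and 27.5% lower in that comparison. Here the plastid share itself overlapped between the groups, at 0.0156% to 0.0844% under +FR and 0.0275% to 0.131% under +FR+UVB.

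Scaled by 18S rRNA the same 3 rows had log2 fold changes of 0.61, 0.66 and 0.30, and the adjusted p-values were 0.0723 for ATCG00340, 0.119 for ATCG00330 and 0.391 for ATCG00120. Under +UVB compared with WL ATCG00340 had -0.04 (adjusted p = 0.852) within its genome in wild type. In *uvr8-6* the addition of UV-B to low R:FR gave 0.31 (SE 0.15, adjusted p = 0.321) for ATCG00340 and 0.42 (SE 0.21, adjusted p = 0.337) for ATCG00330. The difference of the effect between *uvr8-6* and wild type did not pass the test, at -0.36 (SE 0.21, adjusted p = 0.197) and -0.30 (SE 0.30, adjusted p = 0.471).

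Averaged over the 4 light conditions, *uvr8-6* differed from wild type in the balance of 6 members, against 25.4% of all genes higher and 24.3% lower. ATCG00340 was lower by -0.38 (SE 0.07, adjusted p = 9.63e-05) and ATCG00330 by -0.37 (SE 0.10, adjusted p = 0.00391), both kept in 25 of 25 settings that leave out a library. ATCG00350 was lower by -0.26 (adjusted p = 0.0220, kept in 23 of 25). Their identifiers follow each other in number. ATCG00340 measured 34.5 to 60.3 per 1000 scaled counts in the 12 *uvr8-6* libraries and 42.7 to 84.0 in the 12 wild-type libraries, which overlapped. ATMG01080, the F0-ATPase subunit 9 row, was higher in *uvr8-6* by 0.55 (SE 0.18, adjusted p = 0.0130, kept in 25 of 25). Under WL it measured 2.73, 2.55 and 2.33 per 1000 scaled mitochondrial counts in *uvr8-6* against 1.49, 1.19 and 0.933 in wild type. In the other light conditions the groups overlapped. Means in *uvr8-6* and wild type were 2.86 and 2.19 under +FR, 2.85 and 2.05 under +UVB, and 1.71 and 1.72 under +FR+UVB. In the RefSeq sequence *atp9* has no stretch of read length found at a single place, as given above, yet ATMG01080 had at least 8 counts in every library. ATCG00700 was higher by 1.12 (adjusted p = 0.00921, kept in 24 of 25) and ATCG00550 by 0.23 (adjusted p = 0.0493, kept in 7 of 25). The lowest count of ATCG00700 in a library was 0. ATCG00550 was lost with the plain total (adjusted p = 0.0606) and the other 5 passed.

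In *hfr1-101* against wild type, averaged likewise, ATCG00330 was lower by -0.39 (SE 0.10, adjusted p = 0.0235, kept in 20 of 24) and ATCG00680 higher by 0.21 (SE 0.06, adjusted p = 0.0315, kept in 15 of 24), against 2.88% of all genes higher and 1.86% lower. Neither passed with the plain total (adjusted p = 0.0725 and 0.181). The averages of both mutants share the wild-type libraries.

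The UV-B effect was also averaged over genotypes, *uvr8-6* included, and over R:FR. This average passed for the balance of 9 plastid members and 1 mitochondrial member, against 33.7% of all genes higher and 36.5% lower. The 4 that kept their call in 36 of 36 settings were ATCG01130 (0.60, adjusted p = 0.00839), ATCG00330 (0.27, adjusted p = 0.00483), ATCG00340 (0.20, adjusted p = 0.00461) and ATCG00950 (-0.43, adjusted p = 0.0137). All 4 passed with the plain total as well, where 17 plastid and 2 mitochondrial members did and the share of all genes is not given here. ATCG01130 rests on few counts, with a mean of 8 over the 36 libraries and a lowest of 0. Mean levels of ATCG00340 per 1000 scaled plastid counts changed little from WL to +UVB. They went from 61.6 to 59.9 in wild type, 52.4 to 50.3 in *hfr1-101* and 47.01 to 48.98 in *uvr8-6*. From +FR to +FR+UVB they rose from 47.7 to 76.3, 49.3 to 59.3 and 40.2 to 50.05 in that order, with overlapping groups in both mutants. The rise of ATCG00340 in the average thus came from the low R:FR groups. Scaled by TMM on all genes, ATCG00330 and ATCG00340 had the opposite sign in that average, -0.08 and -0.20, and did not pass (adjusted p = 0.817 and 0.573). ATCG00950 was also lower under +UVB in *hfr1-101*, where it measured 2.75, 2.54 and 3.46 per 1000 scaled plastid counts under WL and 0.745, 0.978 and 1.91 under +UVB (-1.26, SE 0.39, adjusted p = 0.00833, kept in 6 of 6, adjusted p = 0.0140 with the plain total). In that comparison 11 plastid members and 1 mitochondrial member were called, against 24.9% of all genes higher and 24.5% lower, and ATCG00950 was the call that remained without WL replicate 1. ATMG00070 was higher when UV-B was added to low R:FR in *hfr1-101*, from 0.761, 0.638 and 0.989 per 1000 scaled mitochondrial counts to 1.43, 1.81 and 2.33 (1.22, SE 0.33, adjusted p = 0.00324, kept in 7 of 7, adjusted p = 0.00187 with the plain total), against 25.1% of all genes called higher. These rest on 7 to 10 counts per library under +FR and 9 to 18 under +FR+UVB.

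The difference of the +UVB effect between *uvr8-6* and wild type was positive for all 75 plastid and all 20 mitochondrial members, with medians of 2.15 and 2.10, against 0.04 over all genes. It passed an adjusted p under 0.05 for ATCG00510 (4.12, SE 1.55, adjusted p = 0.0447), ATMG01200 (3.59, SE 1.15, adjusted p = 0.0190) and ATMG00730 (3.30, SE 1.15, adjusted p = 0.0304), against 13.5% of all genes with a higher effect in *uvr8-6*. ATMG01200 exceeded 0.5 CPM only in *hfr1-101* WL replicate 1 and 2 Col WL libraries, and Col WL is a group this test compares. It may have passed the authors' filter only through these libraries, so its call is given no weight. ATMG00730, the cytochrome c oxidase subunit 3 row, had 13, 19 and 29 counts in Col WL, 4, 6 and 12 in Col +UVB, 0, 5 and 3 in *uvr8-6* WL, and 14, 10 and 6 in *uvr8-6* +UVB. Without *hfr1-101* WL replicate 1 the difference passed for 29 plastid and 7 mitochondrial members, against 13.4% of all genes. The difference in fold changes goes with a difference under WL, where the plastid share was 0.191% ± 0.0351 in wild type and 0.0337% ± 0.0238 in *uvr8-6* (SD, n = 3 each).

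Scaled by 18S rRNA the same difference passed for 19 plastid and 3 mitochondrial members in the opposite direction, against 16.4% of all genes, with medians of -0.84 and -0.96. Scaled within the plastid, 7 members passed, all lower in *uvr8-6*, against 16.3% of all genes. They were ATCG01020, ATCG00190, ATCG00790, ATCG00780, ATCG00670, ATCG00480 and ATCG00540. ATCG00480 measured 23.8, 23.4 and 22.8 per 1000 scaled plastid counts in Col WL and 32.9, 31.7 and 26.8 in Col +UVB, but 47.7, 36.7 and 70.8 in *uvr8-6* WL and 21.9, 31.4 and 26.7 in *uvr8-6* +UVB (difference -1.31, SE 0.40, adjusted p = 0.0136). Of the 7, 5 are among the 9 members with the flattest slopes, and *uvr8-6* WL held the library with the lowest plastid share of all. Scaled by TMM on all genes the difference for ATCG00480 had the opposite sign, 0.98 (adjusted p = 0.306). For ATCG00480 and ATCG00790 the call was kept in 12 of 13 settings and lost without that library, *uvr8-6* WL replicate 3. The calls of ATCG00780, ATCG00190 and ATCG01020 were less stable, kept in 8, 4 and 3 of 13 settings. All 7 passed with the plain total, among 8 members, with the share of all genes in that setting not given here.

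For the +FR effect all 95 differences between *uvr8-6* and wild type were positive, with medians of 2.95 and 2.63, and 54 plastid and 14 mitochondrial members had an unadjusted p under 0.05, against 3.44% of all genes. None passed after adjustment, and neither did any of the 20926 genes (0 called, 0%). For the addition of UV-B to low R:FR, 0 members differed between *uvr8-6* and wild type, against 16.4% of all genes higher and 17% lower, with 0 at an unadjusted p under 0.05, against 42.3% of all genes. Between *hfr1-101* and wild type, 0 members differed in any light effect, where 0% of all genes did for +FR and +UVB, and 0.0621% were higher and 0.00478% lower for UV-B added to low R:FR. At an unadjusted p under 0.05 there were 63 plastid and 8 mitochondrial members for the +UVB effect, against 4.73% of all genes, which became 0 and 0 without *hfr1-101* WL replicate 1.

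Averages over groups called few members. Low R:FR, averaged over genotypes and UV-B, lowered 4 plastid members past the criteria, ATCG00400 (-1.15), ATCG00290 (-1.12), ATCG00560 (-1.07) and ATCG01100 (-1.01), against 0.55% of all genes, and UV-B lowered ATCG00700 (-1.12, adjusted p = 0.0427), against 3.6%. All 5 calls were lost without *hfr1-101* WL replicate 1. The genotype averages called 0 members, against 1.47% of all genes higher and 1.72% lower in *uvr8-6* and 0.248% and 0.134% in *hfr1-101*. At an unadjusted p under 0.05 there were 10 plastid and 0 mitochondrial members in *uvr8-6*, and 0 and 0 in *hfr1-101*, against 55.2% and 20.1% of all genes.

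The list of nuclear genes for organelle transcription and RNA turnover held 27 genes, namely 6 sigma factors, 3 phage-type polymerases, 13 proteins associated with the plastid polymerase and 5 organelle ribonucleases, and all 27 were measured. In wild type under +UVB, 13 of 27 were called higher and 0 lower, against 6.68% of all genes called higher, with a median log2 fold change of 0.95 against -0.05 over all genes. Without the fold minimum 26 of 27 were higher at an adjusted p under 0.05, against 24.5% of all genes. When UV-B was added to low R:FR, 11 were called higher, against 8.27% of all genes, with a median of 0.84. In *hfr1-101*, 7 were called higher in each of the UV-B effects, against 7.96% and 6.61% of all genes, with medians of 0.74 and 0.79. In *uvr8-6* 0 of 27 were called in either UV-B effect, against 0.722% and 0.616% of all genes called higher, with medians of 0.06 and 0.04. Without the fold minimum it was 0 of 27 as well. These counts were the same without *hfr1-101* WL replicate 1.

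*SIG5*, a sigma factor of the plastid polymerase known for its response to light and stress, changed most. It measured 40.3, 40.8 and 43.2 CPM in Col WL and 384.6, 334 and 434 CPM in Col +UVB, which is a rise of 3.21 on the log2 scale (SE 0.14, adjusted p = 4.1e-17). In *uvr8-6* it measured 40.8, 44.5 and 37.5 CPM under WL and 55.2, 47.8 and 50.4 CPM under +UVB. The difference between *uvr8-6* and wild type was -2.89 (SE 0.19, adjusted p = 1.2e-12), and for UV-B added to low R:FR it was -3.46. In *hfr1-101* *SIG5* rose by 2.99 and 3.37, and the difference from wild type, -0.22 (SE 0.18, adjusted p = 0.966) and -0.30 (SE 0.18, adjusted p = 0.996), did not pass.

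Among the phage-type polymerases, *SCA3* (AT2G24120) rose by 1.68 (SE 0.18, adjusted p = 9.9e-09), AT5G15700 by 1.87 and *MGP3* (AT1G68990) by 1.06 in wild type under +UVB. *SCA3* measured 54.8, 50.7 and 50.7 CPM under WL and 172, 154 and 173 CPM under +UVB in wild type, but 45.1, 44.3 and 49.2 CPM and 46.7, 39.0 and 58.7 CPM in *uvr8-6*. Proteins associated with the plastid polymerase that were called included *FLN2* (1.75), *PTAC10* (1.27) and *FLN1* (1.19), and the ribonucleases called were AT5G14580 (1.83), a polyribonucleotide nucleotidyltransferase, and the RNAse E/G-like *RNE* (1.05). The difference of the effect between *uvr8-6* and wild type passed for 23 of 27 genes under +UVB and 21 of 27 for UV-B added to low R:FR, all lower in *uvr8-6*, against 16.3% and 17% of all genes. Between *hfr1-101* and wild type it passed for 0 of 27. Low R:FR called 0 of the 27 in each genotype, against 1.43% of all genes called higher and 0.516% lower in wild type, and without the fold minimum 6 were lower in wild type (4.15% of all genes), 2 higher in *uvr8-6* (5.2%) and 4 lower in *hfr1-101* (4.76%).

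**Figure D5:**
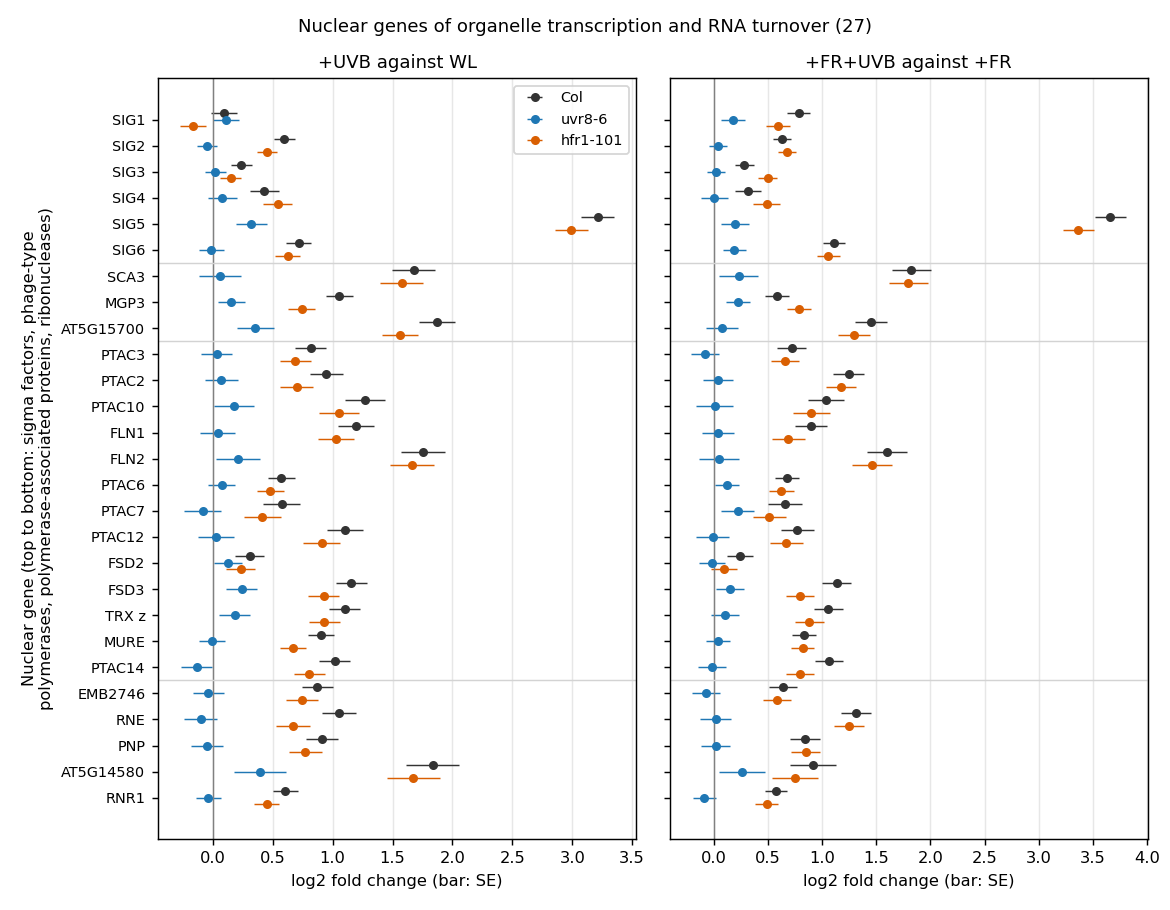
Log2 fold change with its standard error for the 27 nuclear genes of organelle transcription and RNA turnover under UV-B in wild type, *uvr8-6* and *hfr1-101*. *SIG5* reaches 3.21 in wild type and 2.99 in *hfr1-101* under +UVB, while the *uvr8-6* points lie near 0.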

How the data were processed

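Members and gene lists were chosen with earlier results of these data known. RNA of 36 seedling samples was selected for poly(A) and sequenced as single reads, which the authors aligned to TAIR10 with TopHat2 2.0.13 and counted per gene with HTSeq 0.6.1. The counts the authors deposited are unnormalized, and the deposited normalized signal equalled TMM-scaled CPM of the 20926 genes they kept. Counts were fitted here with edgeR 4.0.16 in R 4.3.3 (quasi-likelihood test, 12 groups, TMM, Benjamini-Hochberg adjustment over 20926 genes). Genes were called at a fold over 2 and an adjusted p under 0.05, or at the adjusted p alone for differences between genotypes and for scaling within a genome. The fits were tested on simulated data. Named were, by rule, annotated members, the 10 highest members of each genome, and in each comparison the 5 largest called changes in each direction, without overlap between groups or after scaling within the genome. Other members named were chosen after their values were seen. Of the 95 members, 0 matched the RefSeq gene table by identifier, and all 27 nuclear genes did. Alternatives were DESeq2 1.42.0, other scalings, filters and thresholds, a replicate block and each library left out. Scaling within a genome divides by that genome's total times a TMM factor computed within it. Scaling by 18S rRNA, scaling by the plain total of a genome, and leaving out libraries under scaling within a genome were added after the data were seen.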

Additional observations from a re-analysis of the deposited data

Results flagged for a closer look

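The +UVB effect differed between *uvr8-6* and wild type, by edgeR's quasi-likelihood test of the difference itself, for 3 members with few counts. For ATCG00510 the difference was 4.12 (SE 1.55, adjusted p = 0.0447), with 10, 5 and 11 counts in Col WL, 2, 3 and 5 in Col +UVB, 0, 2 and 0 in *uvr8-6* WL and 9, 2 and 5 in *uvr8-6* +UVB. It passed in 5 of 13 settings that leave out a library. For ATMG00730, the cytochrome c oxidase subunit 3 row, the difference was 3.30 (SE 1.15, adjusted p = 0.0304), which passed in 7 of 13 settings. For ATMG01200 it was 3.59 (SE 1.15, adjusted p = 0.0190), with 6, 11 and 12 counts in Col WL, 6, 2 and 4 in Col +UVB, 2, 2 and 0 in *uvr8-6* WL and 7, 10 and 6 in *uvr8-6* +UVB, and it passed in 12 of 13 settings, being lost without *uvr8-6* WL replicate 3. ATMG01200 had 3 libraries over 0.5 CPM, of which 2 were Col WL libraries and the other *hfr1-101* WL replicate 1. The exact rule of the authors' filter is not known. ATMG01200 may have been tested only because of libraries in which it is high, so its call is given no weight. Scaled within each genome the differences were 2.13, 1.37 and 1.73 for ATCG00510, ATMG00730 and ATMG01200, and none passed (adjusted p = 0.221, 0.168 and 0.197). The organelle share and the 18S share were lower in *uvr8-6* WL than in Col WL, and their part in these differences was not tested.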

How the results depend on the processing

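Counts of called members depended mostly on the scaling and on *hfr1-101* WL replicate 1. The share of all genes called in each of these settings is not given in this section. Its counts therefore show how the calls moved, and not how members compare with all genes. Low counts limit many members, since 37 plastid and 11 mitochondrial members had a library with at most 3 counts.

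With DESeq2, wild type under +FR had 20 plastid and 4 mitochondrial calls, wild type with UV-B added to low R:FR 1 plastid call, the average of +FR 9, the average of UV-B 2, and the *uvr8-6* difference in the +UVB effect 5 and 4. With all genes of at least 1 count that difference had 0 plastid calls, and with edgeR's current quasi-likelihood method it had 1 mitochondrial call while both averages had 0. Without TMM factors it had 7 and 6, the average of UV-B had 3, and the nuclear genes of organelle transcription had 7 calls for +UVB in wild type, 5 with UV-B added to low R:FR and 4 in *hfr1-101*. With no fold minimum, the average of +FR had 16 plastid and 2 mitochondrial calls, the average of UV-B 3 and 1, and the *uvr8-6* average 3 plastid calls. In the same setting the nuclear genes had 6, 2 and 4 calls under +FR in wild type, *uvr8-6* and *hfr1-101*, 26 and 26 in the UV-B effects of wild type, and 24 and 26 in those of *hfr1-101*.

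Scaled within each genome and with the fold minimum kept, wild type under +FR had 2 plastid and 0 mitochondrial calls, wild type with UV-B added to low R:FR 1, *hfr1-101* under +FR 0 and 0, under +UVB 8 and 1, with UV-B added to low R:FR 1 mitochondrial call, both averages 0, the *uvr8-6* average 1, and the *uvr8-6* difference in the +UVB effect 7 and 0. ATMG00730 under +UVB in *hfr1-101* changed sign, to 0.0321. With the plain total of each genome in place of TMM-scaled counts, and no fold minimum, plastid calls went from 9 to 17 for the average of UV-B and from 2 to 0 for the *hfr1-101* average. Scaled by 18S rRNA, wild type under +FR had 4 plastid calls and with UV-B added to low R:FR 2, *uvr8-6* had 3 and 1 under +FR and 4 and 1 under +UVB, *hfr1-101* had 0 and 0 under +FR, 4 and 0 under +UVB and 1 and 1 with UV-B added to low R:FR, the averages of +FR and UV-B had 0, the *uvr8-6* average 1, and the difference 19 plastid calls. Without *hfr1-101* WL replicate 1 in addition, these were 3 for *uvr8-6* under +UVB, 1 for *hfr1-101* under +UVB and 18 for the difference.

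Leaving out each library in turn gave 0 to 46 plastid and 0 to 8 mitochondrial calls in wild type under +FR, 0 to 1 and 0 to 1 under +UVB, and 0 to 3 plastid calls with UV-B added to low R:FR. In *uvr8-6* it gave 0 to 1 mitochondrial calls under +FR, and 0 to 2 and 0 to 1 under +UVB. In *hfr1-101* it gave 0 to 74 and 0 to 18 under +FR, and 5 to 75 and 4 to 20 under +UVB. The averages of +FR and UV-B had 0 to 19 and 0 to 4 plastid calls, the first 0 to 1 mitochondrial calls, and the *uvr8-6* difference in the +UVB effect 0 to 29 and 0 to 7. The log2 ratio of the mean plastid share in *hfr1-101* ran from -3.45 to -0.74 for +FR and from -4.42 to -1.71 for +UVB. The cause of these shifts was not tested.

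Over all genes and all groups, deviations of samples with the same replicate number had correlations of -0.65 to 0.61 (median 0.0053, with 63 of 198 over 0.1). For samples with different numbers these were -0.62 to 0.59 (median -0.0058, with 114 of 396 over 0.1). The numbers thus showed no pairing across the series as a whole, but this pools all pairs, and pairing within a single genotype was not tested. A replicate block moved the plastid count of the *uvr8-6* difference in the +UVB effect from 1 to 2 and left the other 46 counts within 1.5 times. Scaling by nuclear genes alone, nuclear counts as the denominator and leaving out the highest member moved no count or share beyond its limits.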
